A study of Homo sapiens with 6 samples.

Results

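S100 genes encode small calcium-binding proteins. The set described here held S100A2, S100A3, S100A4, S100A6, S100A10, S100A11, S100A13, S100A14, S100A16 and S100P, whose probe sets were taken wherever the array annotation gave exactly 1 gene symbol and that symbol was a member. This gave 10 genes with 13 probe sets, of 19775 genes with 41091 such probe sets in all. The RNA came from DU145, an established human prostate cancer cell line, treated with HGF (hepatocyte growth factor, the ligand of the receptor tyrosine kinase MET, at 25 ng/ml) or with vehicle. Both treatments were sampled at 2, 8 and 24 h, and all cells had been moved from ordinary serum medium to medium with charcoal-treated serum before treatment began. Each condition had 1 Affymetrix U133 Plus 2.0 array, so there were 3 HGF arrays, 3 vehicle arrays and no replicates, and every ratio at a single time compares 2 libraries without a replicate check.

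S100 proteins carry a pair of EF-hand calcium-binding loops and work mostly as dimers. Calcium opens a hydrophobic surface on the dimer, which then holds a target protein such as an annexin, a cytoskeletal protein or an enzyme. Several members also leave the cell and act on the receptor AGER (RAGE) or on TLR4. Most of the genes lie in a cluster on the long arm of chromosome 1 inside the epidermal differentiation region, and epithelia differ in which members they use. Of the members here, 9 lie on chromosome 1, and S100P lies on chromosome 4.

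The stretches just before the start site are shown for the members that stood highest under HGF (S100A2, S100A16 and S100A11) and for S100A3, the other member with an AP-1 motif. AP-1 is the family of dimeric transcription factors made of FOS and JUN proteins. Each sequence is the RefSeq stretch of 250 bases ending just before the annotated transcript start, in build GRCh38.p14, on the minus strand and written 5′ to 3′, with the AP-1 motif TGANTCA in capitals.
S100A2, first of the annotated starts, chr1:153565845-153566094: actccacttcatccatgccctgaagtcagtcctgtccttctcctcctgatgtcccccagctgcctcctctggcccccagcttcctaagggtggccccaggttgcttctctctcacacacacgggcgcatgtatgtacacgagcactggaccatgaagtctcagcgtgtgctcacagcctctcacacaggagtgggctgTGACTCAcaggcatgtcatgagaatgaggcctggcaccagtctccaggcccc
S100A3, chr1:153549259-153549508: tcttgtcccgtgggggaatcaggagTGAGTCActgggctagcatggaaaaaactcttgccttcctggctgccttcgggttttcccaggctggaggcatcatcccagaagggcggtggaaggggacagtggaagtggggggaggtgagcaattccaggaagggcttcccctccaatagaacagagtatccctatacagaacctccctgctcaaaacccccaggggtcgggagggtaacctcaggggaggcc
S100A16, first of the annotated starts, chr1:153613138-153613387: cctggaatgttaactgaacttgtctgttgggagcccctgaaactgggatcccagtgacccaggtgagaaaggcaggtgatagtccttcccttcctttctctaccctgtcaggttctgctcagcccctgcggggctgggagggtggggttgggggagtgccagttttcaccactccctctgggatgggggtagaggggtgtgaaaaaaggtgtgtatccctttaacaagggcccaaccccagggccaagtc
S100A11, chr1:152037005-152037254: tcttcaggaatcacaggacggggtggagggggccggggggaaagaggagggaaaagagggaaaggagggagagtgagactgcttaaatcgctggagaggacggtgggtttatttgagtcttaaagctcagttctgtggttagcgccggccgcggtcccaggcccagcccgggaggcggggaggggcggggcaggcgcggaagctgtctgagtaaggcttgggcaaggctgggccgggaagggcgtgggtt
The motif was searched on both strands, and its letters read the same way on either strand apart from the middle base. In S100A2 it reads TGACTCA and begins 52 bases before the first of 2 annotated starts, and the window of the second start held no match. In S100A3 it reads TGAGTCA and begins 225 bases before the start. It was found in 2 of the 10 members, against 8.06% of the 27305 genes with such a window and 6.57% of the 35116 windows. All 10 members had at least 1 window. The TATA motif TATAAA was found in S100A4 (31 bases before the start), S100A13 (29 bases, in the window of its second start) and S100P (28 bases), which is 3 of the 10 members against 13.05% of genes. The ETS motif CCGGAAG was found in 0 of the 10 members, against 10.2% of genes. These are matches of letters only.

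All signals below carry the scale on which the mean of every array is 150. For ratios, any signal under 30 was raised to 30, called the floor here, so a ratio that meets the floor on one side only says how large the change was at least. A gene passed the rule when 1 or more of its probe sets changed 2-fold or more while its probe sets together changed on average, the same way, by the square root of that fold or more. Of the 10 members, 9 exceeded the floor somewhere and 7 did so in all 6 arrays. S100A3 and S100A14 exceeded it only in HGF arrays, and S100P in none. In the whole series 10791 genes exceeded the floor in 1 array or more and 8936 in all arrays. The deposited means of the arrays lay between 187 and 199 for HGF and between 149.1 and 205.4 for vehicle, with the lowest in the vehicle array of 24 h. The ratio of the end to the start of the ACTB control transcript was higher at later times under both treatments, between 1.13 and 1.71 in HGF arrays and between 1.17 and 1.63 in vehicle arrays. All 5 epithelial markers (KRT8, KRT18, KRT19, EPCAM and CDH1) were above the floor, with summed signals of 10774 to 15931 in HGF arrays and 11158 to 13567 in vehicle arrays. KRT19 passed the rule as higher under HGF at 8 h (log2 ratio 0.86), as did 4.93% of the 10791 genes. EPCAM passed as lower at 8 h (-1.11), as did 14.6%. CDH1 passed as lower at 24 h (-0.57, a mean that includes a bound), as did 1.02%. KRT8 and KRT18 passed at no time. Of the luminal prostate markers KLK2, KLK3, TMPRSS2 and ACP3, 1 of 4 (KLK3) was above the floor, with summed signals of 90.9 to 177 in HGF arrays and 81.9 to 164 in vehicle arrays. None of 5 leukocyte, 4 endothelial and 2 erythroid markers was.

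HGF arrays of 8 and 24 h held more signal for S100A2, S100A16, S100A11 and S100A13, about 1.4 to 3.1 times that of the vehicle array of the same time on their bright probe sets. At 2 h the same probe sets differed by at most 1.25-fold. S100A2 and S100A16 passed the rule as higher at 8 h, which 4.93% of the 10791 genes did, and S100A2 alone of the members passed as higher at 24 h, which 1.91% did. S100A10 passed as lower at 8 h, which 14.6% of genes did. The split at 8 h depended on the scaling, with 532 genes higher and 1580 lower as scaled here, against 1087 higher and 1004 lower after quantile normalization. S100A6 passed as higher at 2 h, which 0.769% did. The calls of S100A6 and S100A10 came from a dim second probe set of each gene, while the bright one of each differed by 1.10-fold or less at those times. No member passed as lower at 2 h (0.102% of genes) or at 24 h (1.02% of genes).

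S100A2 is found in the nuclei of basal cells of many epithelia, the prostate among them. Its probe set 204268_at had scaled signals of 337, 759 and 824 in HGF arrays at 2, 8 and 24 h, against 269, 245 and 276 in vehicle arrays. All HGF arrays were above all vehicle arrays, and the vehicle arrays stayed within a narrow band. The HGF signal was 1.25-fold that of vehicle at 2 h, 3.09-fold at 8 h and 2.98-fold at 24 h. The log2 ratios were 0.32, 1.63 and 1.58, which stood at the 94.9th, 99.7th and 99.8th percentiles of the 10791 genes. Between vehicle arrays the log2 ratios of S100A2 were -0.13 for 8 over 2 h, 0.04 for 24 over 2 h and 0.17 for 24 over 8 h. In whole cultures, more cells with the transcript and more transcript per cell cannot be told apart.

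S100A16 is a widely expressed member whose gene lies next to that of S100A2. Its probe set 227998_at had 2084, 3991 and 4461 in HGF arrays at 2, 8 and 24 h, against 1804, 1828 and 2446 in vehicle arrays. The HGF arrays of 8 and 24 h were above all the others, while the HGF array of 2 h lay below the vehicle array of 24 h. The signal under HGF was 1.16-fold that of vehicle at 2 h, 2.18-fold at 8 h and 1.82-fold at 24 h. The log2 ratio at 8 h was 0.97 after quantile normalization and 0.99 both without scaling and with the vehicle arrays averaged over time, each just under the 2-fold limit. On the deposited scale, without scaling to a common mean, S100A16 had 2765, 4973 and 5571 in HGF arrays and 2405, 2503 and 2431 in vehicle arrays, and these groups did not overlap. Whether the groups overlapped thus depended on the scaling. The vehicle array of 24 h had the lowest deposited mean (149.1), so unscaled values favour HGF at that time for genes in general. Without scaling 701 genes passed as higher at 24 h, against 206 as scaled. The share of all genes without overlap on the deposited scale was not counted.

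S100A11, also called calgizzarin, binds annexin A1 and is a marker of keratinocyte differentiation. Its probe set 200660_at had 3843, 6344 and 5933 in HGF arrays at 2, 8 and 24 h, against 3928, 3225 and 4260 in vehicle arrays. Again the later HGF arrays were the highest. The signal under HGF was 0.978-fold that of vehicle at 2 h, 1.97-fold at 8 h and 1.39-fold at 24 h. At 8 h S100A11 lay just under the 2-fold limit and S100A16 just over it.

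S100A13 takes part in the release of FGF1 and IL1A, which leave the cell without a signal peptide. Its probe set 202598_at had 791, 1265 and 1728 in HGF arrays at 2, 8 and 24 h, against 758, 652 and 1161 in vehicle arrays. The ratio was 1.04-fold at 2 h, 1.94-fold at 8 h and 1.49-fold at 24 h, and the vehicle array of 24 h was itself above the HGF array of 2 h. The other S100A13 probe set, 213481_at, was under the floor in all arrays, between 14.3 and 20.8 in HGF arrays and between 10.8 and 18.5 in vehicle arrays. The mean over both probe sets was thus a log2 ratio of 0.03 at 2 h, 0.48 at 8 h and 0.29 at 24 h, and S100A13 did not pass the rule.

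**Figure D1:**
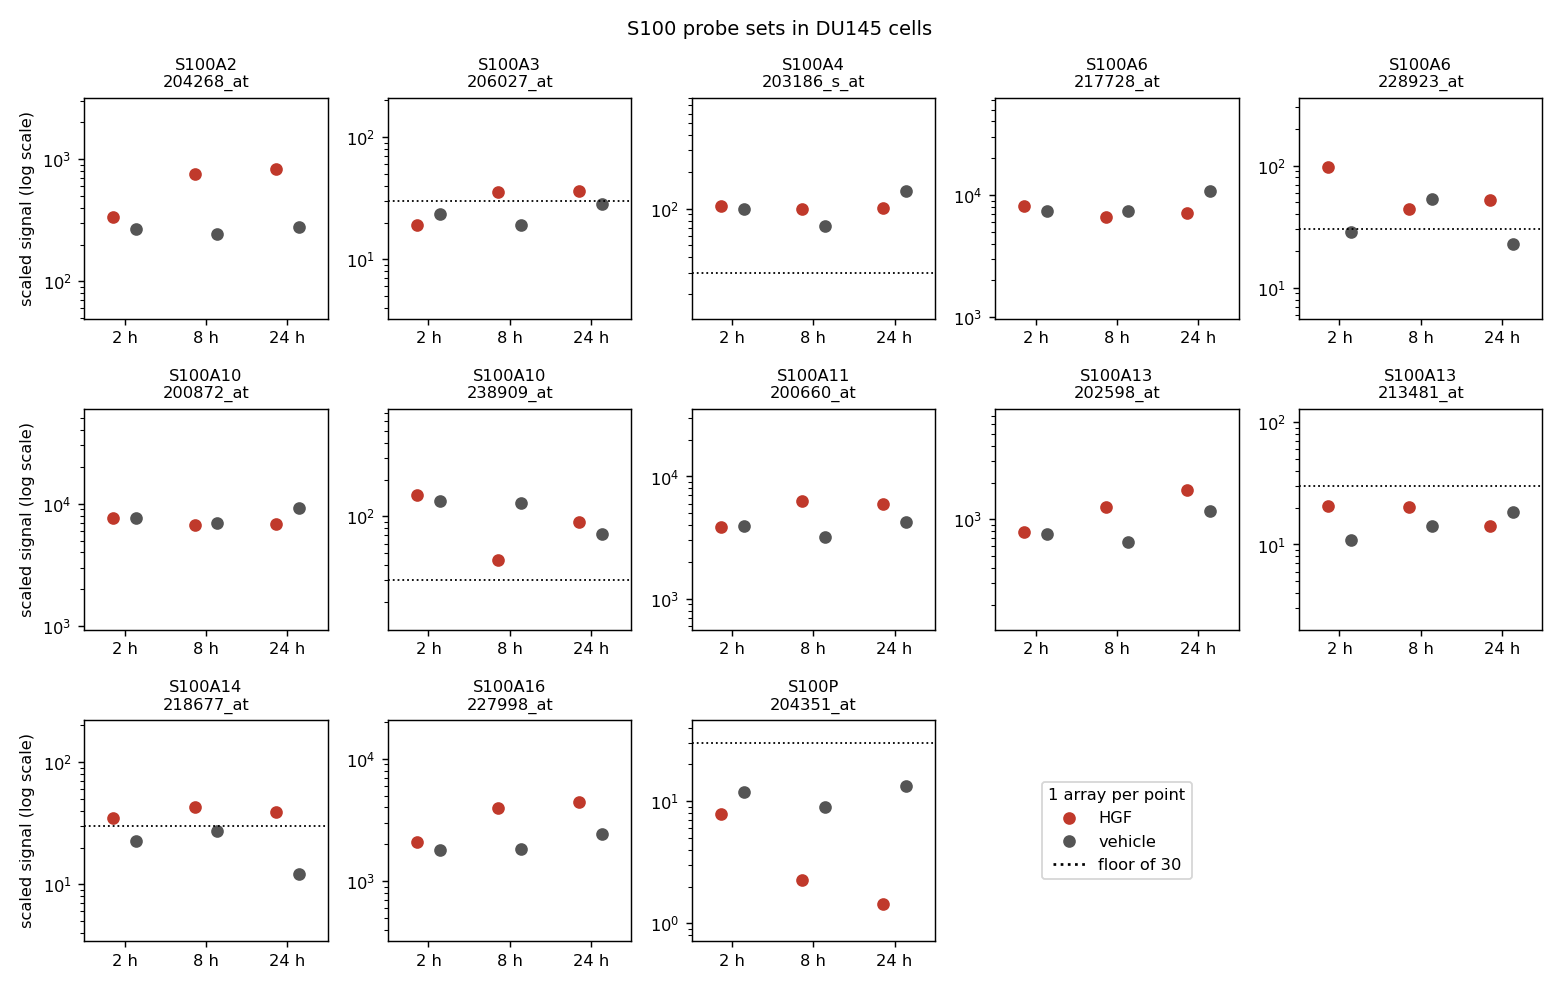
Scaled signal (log scale, array mean 150) of each of the 13 S100 probe sets against time, with HGF in red left of vehicle in grey, 1 array per point and the floor of 30 as a dotted line where it falls in the panel. Every panel spans the same 64-fold, so that vertical distances can be compared. S100A2 has 759 and 824 in the later HGF arrays against 245 and 276 in vehicle arrays, while the bright probe sets of S100A6 and S100A10 stay between 6654 and 10722.

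S100A14, a member found in epithelial cells and known as a ligand of AGER, was dim. Its probe set 218677_at had 34.8, 42.8 and 39.2 in HGF arrays at 2, 8 and 24 h, against 22.7, 27.2 and 12.1 in vehicle arrays. All HGF arrays were above the floor and all vehicle arrays under it. The HGF signal was at least 1.16-fold that of vehicle at 2 h, at least 1.43-fold at 8 h and at least 1.31-fold at 24 h. S100A3, a cysteine-rich protein of the hair cuticle, was dimmer still, with 19.2, 35.5 and 36.6 for probe set 206027_at in HGF arrays, against 23.6, 19.1 and 28.6 in vehicle arrays. Only the HGF arrays of 8 and 24 h were above the floor, giving at least 1.18-fold and at least 1.22-fold. S100P, which was first isolated from placenta and binds ezrin, had 7.91, 2.25 and 1.44 for probe set 204351_at in HGF arrays, against 11.9, 8.91 and 13.3 in vehicle arrays. All of its values were under the floor, so no fold is given.

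S100A10 (p11) has lost calcium binding and forms a tetramer with annexin A2 at the plasma membrane. Its bright probe set 200872_at had 7658, 6732 and 6789 in HGF arrays at 2, 8 and 24 h, against 7583, 6916 and 9278 in vehicle arrays. The log2 ratios were 0.01, -0.04 and -0.45, and the highest scaled value was that of the vehicle array of 24 h. Before scaling, the HGF array of 2 h was the highest (10160), and at 24 h HGF had 8479 against 9223 for vehicle. Its dim probe set 238909_at had 148, 43.7 and 89.6 in HGF arrays, against 134, 128 and 71.2 in vehicle arrays. The HGF array of 8 h was the lowest of these, and vehicle was 2.93-fold higher at that time. The log2 ratios of the dim probe set were 0.15, -1.55 and 0.33, and the gene means were 0.08, -0.79 and -0.06. ANXA2, the gene of its annexin partner, had gene means of 0.04, 0.01 and -0.19.

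S100A6 (calcyclin) binds the ubiquitin ligase adaptor CACYBP and is abundant in dividing epithelial cells and fibroblasts. Its bright probe set 217728_at had 8088, 6654 and 7192 in HGF arrays at 2, 8 and 24 h, against 7346, 7355 and 10722 in vehicle arrays. The log2 ratios were 0.14, -0.14 and -0.58. Before scaling, its values at 24 h were 8983 for HGF and 10658 for vehicle, and the HGF array of 2 h was the highest (10731). The dim probe set 228923_at had 97.9, 44.4 and 52.6 in HGF arrays, against 28.8, 53.0 and 22.9 in vehicle arrays. HGF was thus at least 3.26-fold vehicle at 2 h and at least 1.75-fold at 24 h, while at 8 h the log2 ratio was -0.26. The gene means were 0.92, -0.20 and 0.12. The bright and the dim probe set went in opposite directions at 24 h, and the bright one alone gave no call at any time. Before scaling, the bright probe sets of S100A6 and S100A10 held 8293 to 10731 in HGF arrays and 9223 to 10658 in vehicle arrays, near the top of arrays whose highest values lay between 12246 and 13544.

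S100A4 (metastasin) binds the heavy chain of nonmuscle myosin, is linked to cell migration and is also used as a fibroblast marker. Its probe set 203186_s_at had 104, 99.3 and 101 in HGF arrays at 2, 8 and 24 h, against 99.5, 72.4 and 139 in vehicle arrays. The HGF values hardly moved, while the vehicle values were lowest at 8 h and highest at 24 h. The log2 ratios of HGF over vehicle were 0.07, 0.46 and -0.46, and that of vehicle 24 over 8 h was 0.94. Of 6 fibroblast markers, 1 (COL1A1) was above the floor, while COL1A2, COL3A1, DCN, LUM and PDGFRB were under it, and the summed signal of the list was 228 to 277 in HGF arrays and 225 to 240 in vehicle arrays.

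**Figure D2:**
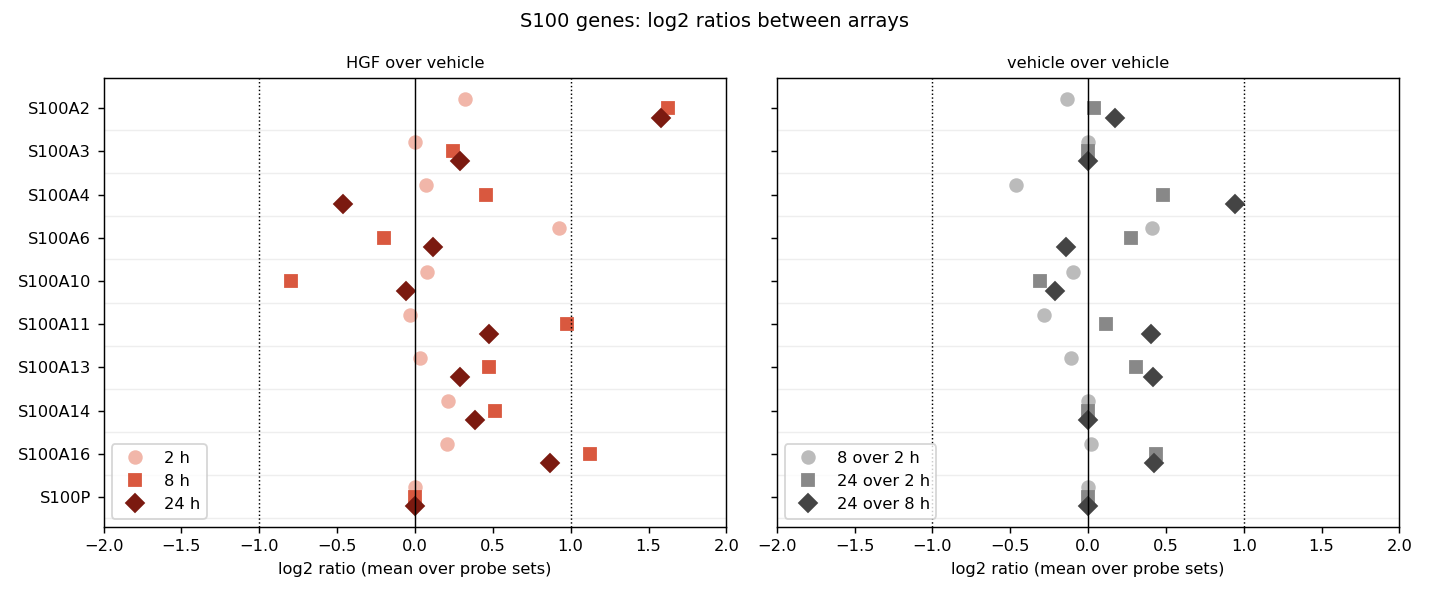
Log2 ratio of the 10 S100 genes, as the mean over the probe sets of a gene, for HGF over vehicle at each time (left) and between vehicle arrays (right), with 1 marker per time and dotted lines at 2-fold. S100A2 stands at 1.63 and 1.58 at 8 and 24 h on the left and between -0.13 and 0.17 on the right, while S100A4 reaches 0.94 between the vehicle arrays of 24 and 8 h.

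Over the 10 members the median log2 ratio of HGF over vehicle was 0.07 at 2 h, 0.47 at 8 h and 0.29 at 24 h, against -0.02, -0.02 and 0.01 over the 10791 genes. At each time 7 of the 10 members had a ratio above 0, against 38.4%, 45.3% and 51.2% of the 10791 genes. The 7 held S100A14 at each time and S100A3 at 8 and 24 h. The sign of both could not be negative, since none of their vehicle arrays cleared the floor. S100P counted at a ratio of 0, although it never exceeded the floor as the 10791 genes did. With values under the floor set to it, both late HGF arrays were above the other 4 arrays for 6 of the 10 members (S100A2, S100A3, S100A11, S100A13, S100A14 and S100A16), which held for 11.6% of genes. For S100A3 and S100A14 only HGF arrays cleared the floor, so they entered through the arrays in which they were high. Both late HGF arrays were below the other 4 for S100A10, which held for 12.2% of genes. For S100A10 this was true of the gene mean and of the bright probe set. On the dim one, HGF at 24 h (89.6) was above vehicle at 24 h (71.2). The bright probe set of S100A6, taken alone, was also lowest in both late HGF arrays, while its gene mean was not. All HGF arrays were above all vehicle arrays for S100A2 and S100A14, which held for 4.77% of genes, and on these floored values no member had all HGF arrays below all vehicle arrays, which held for 4.27%. The S100P values before the floor did lie lower in all HGF arrays, but all of them were under it. The members were chosen with earlier results of these data known, so the shares given here are descriptions only.

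Between vehicle arrays no member passed the rule, against 0.88% of genes for 8 over 2 h, 2.4% for 24 over 2 h and 5.96% for 24 over 8 h. These comparisons share vehicle arrays with each other. Among HGF arrays, S100A2 was higher at 8 than at 2 h (log2 ratio 1.17, with 3.7% of genes higher). S100A6 (-0.71) and S100A10 (-0.97) were lower (8.45% of genes). Both of these calls came from the dim probe sets, at -1.14 for S100A6 and -1.76 for S100A10. The bright probe sets stood at -0.28 and -0.19. At 24 against 2 h, S100A2 (1.29), S100A16 (1.10) and S100A13 (0.56) were higher, with 1.5% of genes higher. S100A10 was higher at 24 than at 8 h (0.52, with 4.24% of genes higher), again through its dim probe set (1.03, against 0.01 for the bright one). On the vehicle side S100A13 and S100A16 also had more signal at 24 than at 2 h, with log2 ratios of 0.31 and 0.44 that did not pass.

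A fit over all arrays, with time as a block, asked which genes differed between HGF and vehicle at all times together. Arrays of different times stood in for replicates in this fit, so a response that changes with time adds to its error. With limma and Benjamini-Hochberg adjustment over 9982 genes, no gene had an adjusted p under 0.05 (0%), and the smallest adjusted p was 0.161. S100A2 had a mean log2 ratio of 1.18 (SE 0.30, higher in 3 of 3 times, limma adjusted p = 0.912, range over the alternatives 0.236 to 1). S100A16 had 0.73 (SE 0.21), S100A11 0.47 (SE 0.22), S100A14 0.37 (SE 0.14), S100A6 0.28 (SE 0.25), S100A13 0.26 (SE 0.15), S100A4 0.02 (SE 0.21) and S100A10 -0.26 (SE 0.21). At an unadjusted p under 0.05 the fit held 3 of the 8 members tested, S100A2, S100A14 and S100A16, against 4.04% of genes. S100A14 entered the fit only through its HGF arrays, and all its vehicle values were set to the floor, so its direction was fixed by the filter and its SE is affected by the floor. S100A3 and S100P were not tested, since fewer than 3 of their arrays were above the floor.

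Across the 6 arrays, S100A2 followed S100A16 (Pearson r = 0.96) and S100A11 (r = 0.94), and S100A16 followed S100A11 (r = 0.95) and S100A13 (r = 0.94). S100A10 ran against these members, with r between -0.83 and -0.67. S100A4 and S100A6 had r between -0.23 and 0.47 with them. The profiles of S100A10 and S100A6 are means over a bright and a dim probe set, and the dim one varied more. For S100A10 the dim one ranged from 43.7 to 148 and the bright one from 6732 to 9278. For S100A6 the ranges were 22.9 to 97.9 and 6654 to 10722. The values share arrays and scaling, and these coefficients are descriptions. Among the 8936 genes above the floor in all arrays, the profile most like that of S100A2 was that of FRMD4A (r = 0.99, with log2 ratios of only 0.02, 0.21 and 0.20), followed by DNTTIP1 and SPSB1. For S100A16 these were SMTN, the smooth muscle protein smoothelin, UPP1, a uridine phosphorylase, and ARAP1, and UPP1 had ratios of 0.39, 1.33 and 1.06. For S100A11 they were ERCC1 (ratios 0.01, 1.51 and 0.73), PSMD4 and HOMER2, and for S100A13 NOP10, ATP5PF and PTTG3P. For S100A10 they were USPL1, ANLN, the cytokinesis protein anillin (0.09, -1.28 and 0.00), and SRBD1. For S100A4 they were ZMAT5, CLDN15 and MIEN1, and for S100A6 SRSF4, AKAP17A and ZFYVE27.

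In gene order along chromosome 1, S100A2, S100A16, S100A14 and S100A13 follow one another. S100A2 and S100A16 had positive ratios at all times. So did S100A14, but only its HGF arrays cleared the floor, which fixed its sign. S100A13 had only 0.03 at 2 h, and -0.04 with the mean of all vehicle arrays as reference. The share of all genes with positive ratios at all times was not counted. S100A3 and S100A4 lie on one side of this run. S100A1, which was under the floor in all arrays, and CHTOP lie on the other. CHTOP had log2 ratios of 0.25, 0.50 and -0.02, and of SNAPIN, ILF2, NPR1 and INTS3 beyond it none passed the rule. S100A5, between S100A4 and S100A6, was under the floor, as were, beyond S100A6, S100A7, S100A7A, S100A8 and S100A12. S100A10 and S100A11 lie outside this run of genes.

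**Figure D3:**
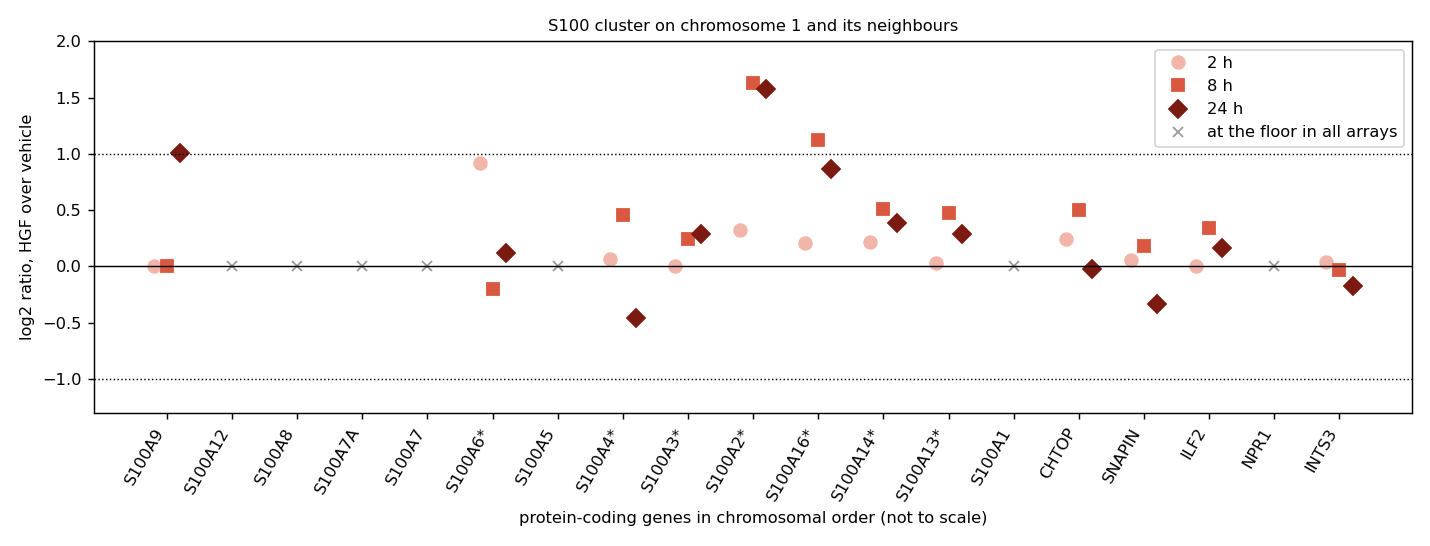
Log2 ratio of HGF over vehicle at 2, 8 and 24 h for the genes around the S100 cluster, placed in their order along chromosome 1 and not to scale, with members starred, dotted lines at 2-fold and crosses for genes at the floor in all arrays. S100A2 reaches 1.63 and its neighbour S100A16 1.13 at 8 h, while CHTOP reaches 0.50 and INTS3 stays between -0.17 and 0.04.

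Of 11 other S100 genes, 10 had probe sets and 1 was above the floor. This was S100A9, a subunit of calprotectin, which is abundant in neutrophils and monocytes. Probe set 203535_at of S100A9 had 10.3, 18.4 and 60.3 in HGF arrays, against 13.6, 4.02 and 22.3 in vehicle arrays. It passed the rule at 24 h with at least 2.01-fold more signal under HGF, on a single array above the floor. None of 5 leukocyte markers (PTPRC, CD3E, CD14, ITGAM and LYZ) was above the floor, and their summed signal was 54.3 to 61.8 in HGF arrays and 44.3 to 64.9 in vehicle arrays. Of the fused S100 genes, which join an S100 domain to long repeats in the skin, 1 of 5 with probe sets was above the floor. This was TCHH (trichohyalin), with log2 ratios of -0.48, -0.48 and 0.48. The last 2 ratios are bounds, since HGF at 8 h (24.8) and vehicle at 24 h (23.2) were under the floor. None of 12 other genes of the epidermal differentiation region was above the floor, and their highest signal was 26.9.

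Of 21 known binding partners and receptors of S100 proteins, 20 had probe sets and 13 were above the floor. AGER and TLR4 were not among these 13. No partner passed as higher at any time, and 2 passed as lower at 8 h, when 14.6% of all genes did. These were ANXA1, the partner of S100A11 (log2 ratio -1.08), and IQGAP1, a scaffold of the actin cytoskeleton (-0.78). Probe set 201012_at of ANXA1 had 3124, 2097 and 3424 in HGF arrays, against 3715, 4718 and 3299 in vehicle arrays, so that the HGF array of 8 h was the lowest and the arrays of 24 h were close. The median over the 13 partners was -0.01 at 2 h, 0.00 at 8 h and 0.03 at 24 h. Of 11 annexins with probe sets 8 were above the floor, and ANXA1 was the 1 annexin that passed.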

How the data were processed

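RNA of DU145 cells was hybridised to Affymetrix U133 Plus 2.0 arrays, 1 array per treatment and time. The authors deposited linear signal intensities made with MAS5 (version not given in the sources used here), and these intensities had unequal array means and no floor. The paper's methods name quantile normalization, a mean of 150 and a floor of 30. For this work the arrays were brought to a mean of 150 and floored at 30, log2 ratios of HGF over vehicle were taken, and probe sets of a gene were averaged. The limit for the mean of a gene was 1.41-fold. Of 54675 probe sets, 41097 had 1 symbol in the platform annotation, 1801 several and 11777 none, and 6 control probe sets were left out. 41037 probe sets were matched to current symbols by gene identifier. limma 3.58.1 (R 4.3.3, lmFit and eBayes, time as block) tested the shared effect over genes that had a probe set exceeding the floor in 3 arrays or more. Other steps used Python 3.11.15 with pandas 2.3.3. The fit was tried on simulated data in which an HGF effect was equal at all times and the noise equal for all genes. That trial does not cover responses that change with time. Nothing says that the arrays came from separate cultures, and 1 array per condition limits the precision.

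All members were named with all probe sets. Of other lists, genes passing the rule or with the largest ratios were named, and for each of the 7 members above the floor in all arrays the 3 genes with the highest Pearson r. Members, lists and tests were chosen with earlier results of these data known. The alternatives tried were leaving the floor out, raising it to 60, centring the ratios, quantile normalization, other ways to join probe sets, a 3-fold limit, other vehicle references, and fits without the block, without the filter or without the pair of 1 time.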

Additional observations from a re-analysis of the deposited data

Results flagged for a closer look

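S100A4 (203186_s_at) had log2 ratios of HGF over vehicle of opposite sign at 8 h (0.46) and at 24 h (-0.46), each past 1.25-fold. The dim S100A10 probe set 238909_at did so too, with -1.55 at 8 h and 0.33 at 24 h. With 1 array per condition, the difference between the times was not tested for either. For S100A4 the signs depended on the vehicle reference. With the mean of all vehicle arrays as reference, its log2 ratios were -0.01 at 8 h and 0.01 at 24 h. Without scaling they were 0.32 and -0.13, and with quantile normalization 0.75 and -0.53.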

How the results depend on the processing

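S100A2 had a positive ratio of HGF over vehicle in all 11 alternatives at 8 h (log2 1.49 to 1.72) and all 12 at 24 h (lowest with quantile normalization, highest at 1.91 without scaling), and passed the rule in each. Under a 3-fold limit it passed at 8 h and not at 24 h. S100A16 was positive in all of them (0.97 to 1.22 at 8 h, 0.80 to 1.30 at 24 h) and passed in 8 at 8 h and 3 at 24 h. The count of members passing moved as follows. At 2 h it was 1, and 0 with a floor of 60, with the brightest probe set or with only probe sets at 100 or more (S100A6 lost). At 8 h it was 3, 5 with centred ratios (S100A11 and S100A13 added) and 1 with a 3-fold limit (S100A2). It was 4 without a floor (S100P added as lower) and 2 with the brightest probe set (S100A10 lost). Quantile normalization, the mean of all vehicle arrays and values without scaling each gave 2 (S100A16 lost). Over all genes, 2980 passed as higher and 5328 as lower at 8 h without a floor. With centred ratios 759 passed as higher and 1267 as lower. At 24 h it was 1, 3 without a floor (S100A14 added, S100P lower) and 0 with the 3-fold limit. It was 3 with the mean of all vehicle arrays as reference (S100A13 and S100A16 added). Without a floor 2896 of the 19775 genes passed as higher and 3289 as lower at 24 h, against 206 and 110 with it. With the mean of all vehicle arrays 158 passed as higher and 141 as lower. After the data were seen, averaging the 2 h and 8 h vehicle arrays as reference was tried as well and gave 3. Deposited values without scaling, also tried then, gave 2 (S100A16 added). Over all genes, 176 passed as higher and 347 as lower with that averaged reference. Between vehicle arrays of 24 and 8 h it was 0, 1 without a floor, 1 with quantile normalization, 2 with centred ratios and 2 without scaling. Over all genes, 2647 were higher and 4146 lower there without a floor. The counts were 218 and 222 with quantile normalization, and 182 and 207 with centred ratios. For 24 over 2 h it was 0, and 1 without scaling. Without scaling the median ratio of all genes was 0.23 at 24 h, and 701 genes passed as higher and 41 as lower. Unscaled vehicle arrays gave 2 genes higher and 2603 lower for 24 over 8 h. For 24 over 2 h they gave 5 higher and 1712 lower. Quantile normalization gave 1087 genes higher and 1004 lower at 8 h, against 532 and 1580 with scaling alone. The limma fit called 0 members, and 3 at the unadjusted p. Leaving out 1 time at a time moved its S100A2 ratio between 0.95 and 1.60 with 0 calls. The labels give no replicate numbers, so HGF and vehicle arrays were paired by time alone, as the block of the fit, and the fit without the time block called 0 members as well. S100A3, S100A14 and S100P lay at or near the floor, where a ratio is a bound or has no meaning.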
